A study of Mus musculus with 6 samples.

Results

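The small heat shock proteins of muscle were followed through 6 cultures of C2C12, a mouse myoblast line that divides in rich serum and forms multinucleated myotubes when serum is withdrawn. The 7 genes Cryab, Hspb1, Hspb2, Hspb3, Hspb6, Hspb7 and Hspb8 were taken by name, and a gene's level was the mean log2 signal of the probe sets annotated to it alone. Of these 7, 6 could be measured among the 22180 genes of the arrays. Hspb2 had no probe set of its own, because the only probe set that names it also names Cryab. In the mouse assembly GRCm38.p6, RefSeq places Hspb2 at chr9:50751072-50752354, inside the span given for Cryab at chr9:50745951-50756636.

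Small heat shock proteins are chaperones that need no ATP. They bind proteins that begin to unfold, hold them soluble as large oligomers, and pass them to HSP70 machines for refolding or to autophagy for disposal. They share a conserved alpha-crystallin domain, and striated muscle is unusually rich in them because its filaments and Z-discs are under constant mechanical load. Cryab (alphaB-crystallin) binds desmin and titin, and Hspb1 protects actin filaments. Hspb8 works with the cochaperone BAG3 in chaperone-assisted autophagy. Hspb6 is a substrate of the cAMP-dependent kinase, Hspb7 is a cardiovascular and muscle form, and Hspb2 and Hspb3 form a complex that appears during muscle differentiation. The heat shock factor HSF1 induces some family members when misfolded protein accumulates.

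Each group was 1 array from 1 culture, so no group had a replicate. All cultures were started in medium with 10% fetal bovine serum. Growth-medium cultures were left untreated, given TNF-α at 50 ng/ml for 24 h, or given BTZ at 10 nM for 24 h. Differentiation cultures were moved to a 2% differentiation medium and collected on day 5, either untreated or after TNF-α (50 ng/ml) or BTZ (10 nM) was added on day 4. The cytokine TNF-α drives inflammation. BTZ is not spelled out in the labels; it is a common short form of bortezomib, a proteasome inhibitor. All arrays carry the cell type label of C2C12 myoblasts. The p-values below come from a fit over all 6 cultures, without replicates. They cannot separate spread between cultures from an unequal response to treatment in the 2 media.

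The arrays behaved as their labels say for the genes checked. Of 10 markers of muscle differentiation, 8 were 2-fold or more higher on the untreated differentiation array than on the untreated growth-medium array. The share of all genes was 4.83%, and the median log2 difference of the 10 markers was 3.87. Among the 8, Myh3 and Mef2c passed the floor described below only on differentiation arrays, so the floor itself favoured higher values there. Of 6 genes that respond to TNF-α, 5 were at least 2-fold higher with it in growth medium and 6 in differentiation medium. The shares of all genes were 0.982% and 2.01%. All 7 proteasome genes checked were higher with BTZ in both media. Markers of macrophages, adipocytes and endothelium lay low: 2 of 5, 2 of 5 and 0 of 4 of them reached the floor on any array, and the mean log2 signal of each list stayed between 4.27 and 4.88. Among them Cd68, a lysosomal protein abundant in macrophages, lay between 5.63 and 7.74 on the 6 arrays; it was 1.17 higher with BTZ in growth medium and passed the limma fit described below for BTZ (adjusted p = 0.041) and medium (adjusted p = 0.024). It is named because its values stood out, while Ptprc, Adgre1 and Itgam were under the floor on all arrays. The floor was the median of all deposited values, 5.06, and 13652 genes reached it on at least 1 array. All 6 measured small heat shock genes reached it, although Hspb3 did so only in differentiation medium, where it was higher. In bulk RNA such as this, fewer cells of a kind and less RNA per cell cannot be told apart.

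The response to BTZ divided the family. Cryab, Hspb1 and Hspb8 were higher with BTZ in both media, Hspb6 and Hspb7 were lower in both, and Hspb3 differed little. In growth medium 3 of 6 genes lay 2-fold or more higher and 1 lower, against 4.99% and 6.16% of all genes above the floor. In differentiation medium 2 of 6 lay 2-fold or more higher and 1 lower, against 6.05% and 8.91%. An additive model of medium and treatment, fitted with limma to all 6 arrays and all 13652 genes, gave a BTZ effect averaged over both media, with p-values adjusted by the Benjamini-Hochberg method. By it Cryab, Hspb1 and Hspb8 rose and Hspb6 fell at an adjusted p under 0.05, which is 4 of 6 genes, against 14.2% of all genes. Genes of dividing cells moved on the same arrays: 5 of 5 were past 2-fold downwards with BTZ in growth medium (median -2.16) and 4 of 5 in differentiation medium (median -1.25), and their part in the members' values was not tested.

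**Figure D1:**
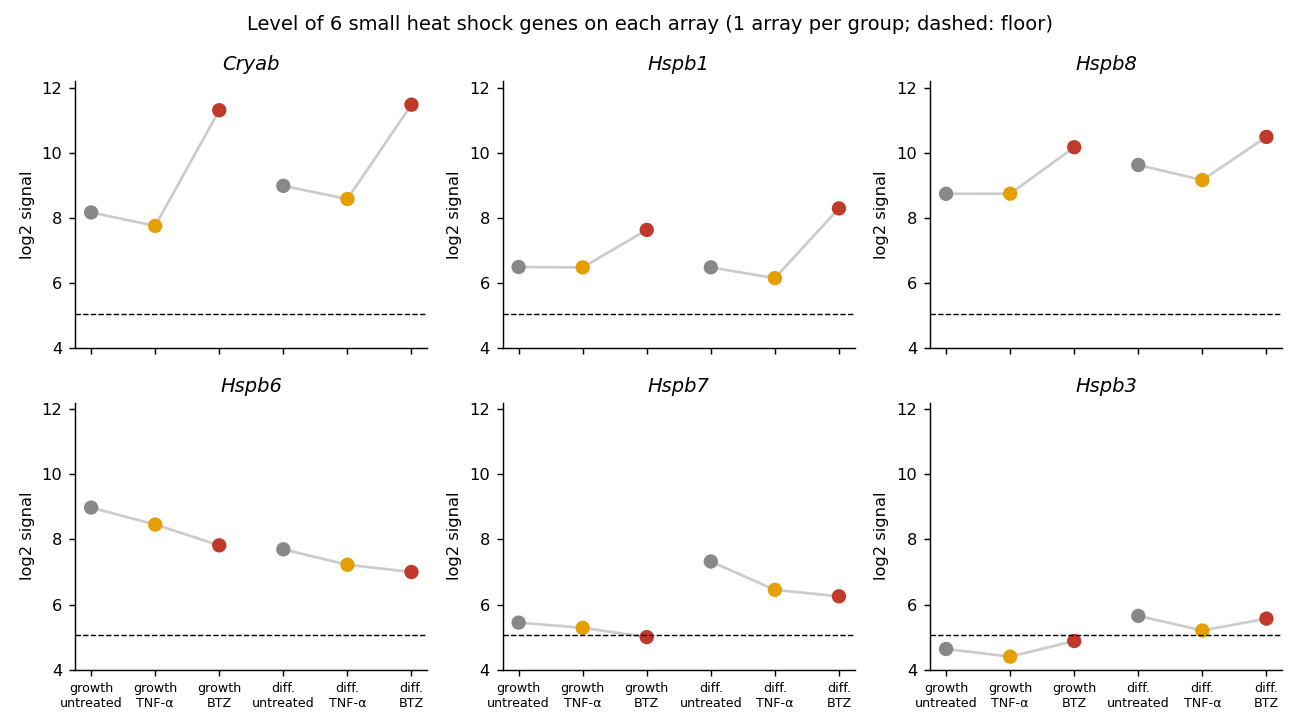
Log2 signal (y axis) of the 6 measured genes on each of 6 arrays (x axis: medium and treatment; grey untreated, orange TNF-α, red BTZ; 1 array per point, lines join arrays of a medium, dashed line the floor of 5.06). Cryab, Hspb1 and Hspb8 have their highest points on the BTZ arrays, Hspb6 and Hspb7 their highest on untreated arrays, and Hspb3 lies under the floor in growth medium.

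Averaged over its probe sets, Cryab had the largest BTZ difference of the 6 genes in both media. Its log2 signal in growth medium was 8.17 untreated, 7.75 with TNF-α and 11.30 with BTZ. In differentiation medium it was 8.98 untreated, 8.58 with TNF-α and 11.48 with BTZ. Both BTZ arrays stood above all the others, and they lay within 0.17 of each other although the untreated arrays differed by 0.82. The BTZ difference was 3.14 in growth medium, or 8.80-fold, which ranked 2 among 13652 genes. In differentiation medium it was 2.49, or 5.63-fold, at rank 45. The additive fit put the BTZ effect at 2.81 ± 0.22 (SE), with a limma adjusted p of 0.0085.

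Cryab was read by 2 probe sets, which moved the same way. The brighter was higher with BTZ by 2.57 in growth and 2.15 in differentiation medium, and the dimmer by 3.71 and 2.83. The size of the Cryab difference therefore depends on which probe set is read, while its direction was the same in both. With the brighter probe set of each gene, Hspb1 at 2.28 was above Cryab at 2.15 in differentiation medium.

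**Figure D2:**
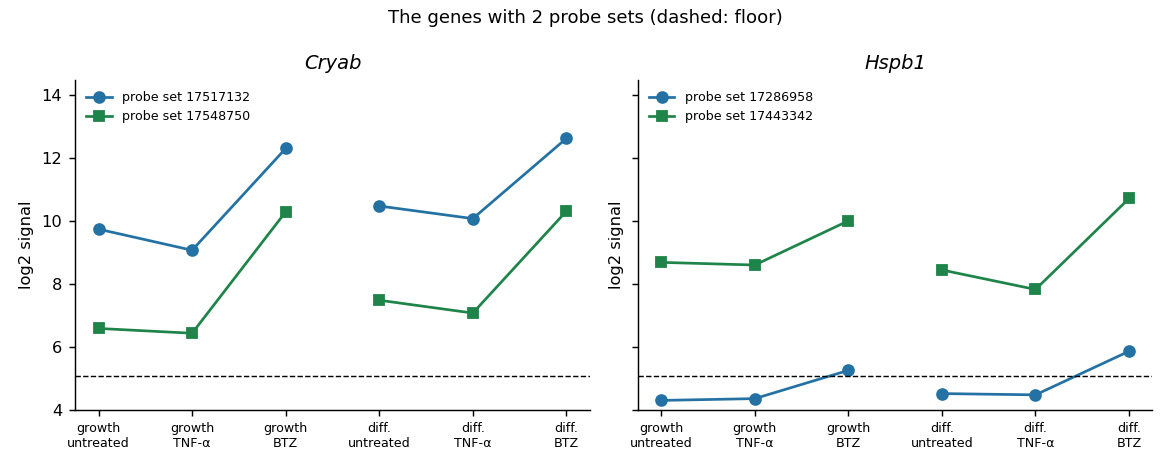
Log2 signal (y axis) of each probe set of Cryab and Hspb1 on each array (x axis; 1 array per point, lines join arrays of a medium, dashed line the floor of 5.06). Both probe sets of each gene are highest on the BTZ arrays, and the dimmer Hspb1 probe set is under the floor on the 4 arrays without BTZ.

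Hspb1, the actin-protecting member, rose with BTZ. Its log2 signal in growth medium was 6.49 untreated, 6.48 with TNF-α and 7.63 with BTZ. In differentiation medium the values were 6.48, 6.15 and 8.29. The BTZ arrays were again the highest, and here the array from differentiation medium was above that from growth medium. The BTZ difference was 1.14 (2.20-fold) in growth and 1.81 (3.51-fold) in differentiation medium, and the fitted effect was 1.48 ± 0.27 (SE; limma adjusted p = 0.025). Of its 2 probe sets, the dimmer was under the floor on the 4 arrays without BTZ, so its folds are compressed by background. The brighter probe set alone gave BTZ differences of 1.32 and 2.28. Between media the 2 probe sets ran opposite ways on the arrays without BTZ. In untreated cultures the brighter differed by -0.24 and the dimmer by 0.22, and with TNF-α by -0.78 and 0.12. Between the BTZ arrays both were higher in differentiation medium, the brighter by 0.71 and the dimmer by 0.61.

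Hspb8, the partner of BAG3, had log2 signals of 8.74 untreated, 8.74 with TNF-α and 10.17 with BTZ in growth medium. In differentiation medium they were 9.62, 9.16 and 10.49. Both BTZ arrays lay above the other 4, with a smaller gap in differentiation medium, where the untreated level was already higher. The BTZ difference was 1.43 (2.69-fold) in growth and 0.86 (1.82-fold) in differentiation medium, and the fitted effect was 1.15 ± 0.20 (SE; limma adjusted p = 0.023).

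Hspb6, the kinase substrate, went the other way. Its log2 signal in growth medium was 8.98 untreated, 8.46 with TNF-α and 7.82 with BTZ. In differentiation medium it was 7.70, 7.22 and 7.0. Within each medium the order was untreated, TNF-α, BTZ, and all growth-medium values were above all values from differentiation medium. The BTZ difference was -1.16 in growth and -0.70 in differentiation medium. By the limma fit Hspb6 fell by 0.93 ± 0.19 (SE; adjusted p = 0.034) on the log2 scale.

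Hspb7 and Hspb3, which are muscle forms, did not pass the test for BTZ. Hspb7 had log2 signals of 5.45, 5.29 and 5.00 in growth medium (untreated, TNF-α and BTZ), the last of them under the floor. In differentiation medium the values were 7.32, 6.45 and 6.25, so the untreated array stood apart from both treated arrays. Its BTZ difference was -0.44 in growth and -1.07 in differentiation medium, where it was the 1 member past 2-fold downwards (2.10-fold). The fitted effect was -0.76 ± 0.23 (SE; limma adjusted p = 0.083). Muscle differentiation markers moved on the same array: 9 of 10 were at least 2-fold lower with BTZ in differentiation medium, with a median of -2.20, and their part in the Hspb7 value was not tested. Hspb3 had log2 signals of 4.64, 4.40 and 4.88 in growth medium, all under the floor, and 5.65, 5.20 and 5.57 in differentiation medium. Its fitted BTZ effect was 0.08 ± 0.19 (SE; limma adjusted p = 0.81).

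These calls lean on single arrays. Without the untreated growth array or the untreated differentiation array, 0 members passed the limma fit for BTZ, and 0 of all 13652 genes did; the Cryab effect was then 2.66 and 2.97, with adjusted p-values of 0.10 and 0.099. Without either TNF-α array Hspb6 was lost (adjusted p = 0.063 without the growth array and 0.061 without the differentiation array), which left 3 members, while the genes called in all fell from 1933 to 1258 and 1313. With either BTZ array left out, the fit matches the other exactly and cannot show whether a BTZ effect repeats. The fitted BTZ effects were then 2.49 for Cryab and -0.71 for Hspb6 without the growth-medium BTZ array. Without the other BTZ array they were 3.14 and -1.15. Fits without an untreated array likewise leave 1 untreated array, which is matched exactly.

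**Figure D3:**
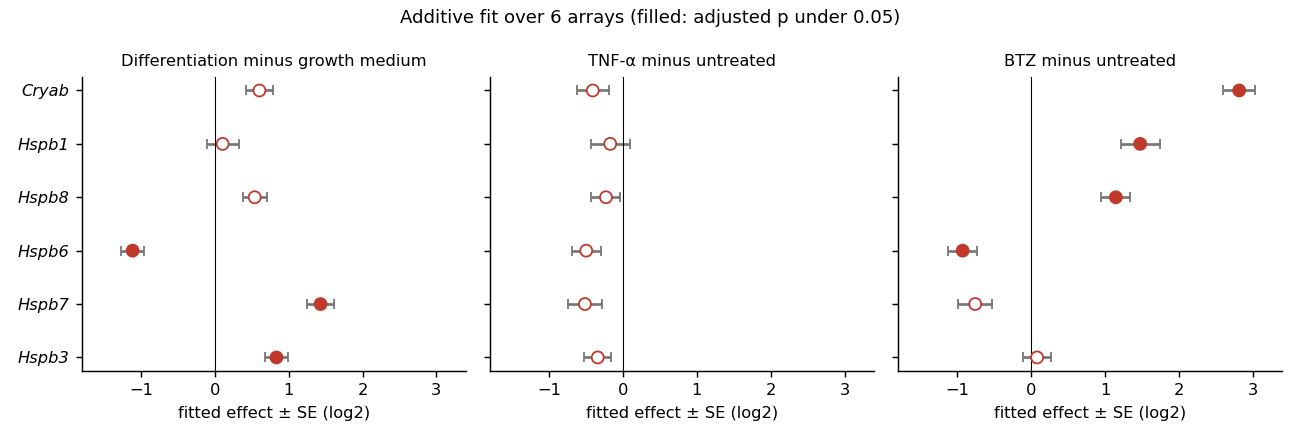
Fitted effects on the log2 scale (x axis, point ± SE) of medium, TNF-α and BTZ for the 6 measured genes (y axis) in the additive limma fit over 6 arrays; filled points have an adjusted p under 0.05. For BTZ, Cryab at 2.81, Hspb1 at 1.48 and Hspb8 at 1.15 are right of 0 and Hspb6 at -0.93 is left of it; all 6 TNF-α points are open.

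RefSeq promoter windows of GRCm38.p6, which run from 250 bases before to 50 bases after a start, were given for 5 of the 7 genes: Hspb1, Hspb3, Hspb6 (with 2 starts), Hspb7 and Hspb8. They were searched for facing units of the heat shock element, GAANNTTC and TTCNNGAA, each of which reads the same on both strands. GAANNTTC occurred in the windows of 4 of the 5 genes, against 9.04% of all 27025 genes with windows, and TTCNNGAA in 0 of the 5, against 9.60%. The 4 stretches below are shown because a gene that fell and a gene that did not pass the test for BTZ hold the same motif as 2 genes that rose. They are printed 5′ to 3′ on the gene's own strand, with the matches in capitals.

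Hspb1 (chr5:135887762-135887829, plus strand): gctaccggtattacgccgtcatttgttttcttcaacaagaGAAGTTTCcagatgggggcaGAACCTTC
Hspb8 (chr5:116422835-116422902, minus strand): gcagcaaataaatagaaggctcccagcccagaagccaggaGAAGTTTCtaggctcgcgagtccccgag
Hspb6 (chr7:30553141-30553208, plus strand): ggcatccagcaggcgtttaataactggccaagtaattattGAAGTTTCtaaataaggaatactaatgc
Hspb3 (chr13:113663873-113663926, minus strand): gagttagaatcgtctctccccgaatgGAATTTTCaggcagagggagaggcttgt

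Hspb1 held 2 matches, from 117 to 110 and from 97 to 90 bases before the start. The Hspb6 match, before the downstream of its 2 starts, ran from 120 to 113 bases before that start. In Hspb3 it ran from 224 to 217 bases before the start. The match in Hspb8 lay just inside the transcript, at bases 3 to 10. Hspb1, Hspb8 and Hspb6 shared the same 8 letters, GAAGTTTC. The window of Hspb7 held neither motif. A match is a description of letters, not a shown binding site, and it was found both in genes that rose and in Hspb6, which fell. Of 18 other heat shock genes with windows, 9 held GAANNTTC. The E-box letters CANNTG, which myogenic factors can bind, were in 4 of the 5 member genes, against 75.0% of all genes, and the form CAGCTG was in 0 of the 5, against 18.3%.

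Genes that work beside the small heat shock proteins were counted over whole lists, which were fixed with earlier results of these data known. The single genes named from these lists were mostly picked for the largest differences, so they do not stand for the rest of a list. In a list of 22 other heat shock genes, 19 were measured. Most are cytosolic, while Hspd1 and Hspe1 act in mitochondria. Of the 19, 18 were higher with BTZ in growth medium, 7 at least 2-fold, against 4.99% of all genes (median 0.88, against 0.02 for all genes). In differentiation medium 19 of 19 were higher, 14 at least 2-fold, against 6.05% of all genes (median 1.77, against 0.00). By the limma fit 13 of 19 rose with BTZ and 0 fell, where 14.2% of all genes were called in either direction. The inducible HSP70 gene Hspa1b differed by 2.93 in growth and 3.41 in differentiation medium, and the HSP110 gene Hsph1 by 1.80 and 2.77. The co-chaperones Dnaja4 and Dnajb1 differed by 1.99 and 1.61 in growth medium and by 2.08 and 2.78 in differentiation medium. Of 7 measured genes of BAG3 and chaperone-assisted autophagy, 5 rose with BTZ by the fit and 1 fell, against the same 14.2% of all genes. The autophagosome protein Gabarapl1 differed by 1.53 in growth and 1.74 in differentiation medium, and the autophagy receptor Sqstm1 by 1.17 and 1.67. Filamin C (Flnc), a client of the pathway, differed by 1.71 in growth medium, and Bag3 itself by 1.56 in differentiation medium. The gene that fell was the adaptor Synpo2, named because it was alone in that direction, with a fitted effect of -1.13 ± 0.26 (SE; limma adjusted p = 0.045). Of 13 filament and Z-disc genes above the floor, which include known clients of the family, 0 rose and 3 fell with BTZ by the fit: desmin (Des), nestin (Nes) and, outside the rule for named genes, vimentin (Vim). These 3 of 13 stand against 14.2% of all genes called for BTZ. Flnc, which rose by the fit, was counted in the BAG3 list only. In growth medium 1 of the 13 lay 2-fold or more higher with BTZ and 3 lower, against 4.99% and 6.16% of all genes. For differentiation medium it was 1 higher and 5 lower, against 6.05% and 8.91%.

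The BTZ differences were then set side by side between media, as the response in differentiation medium minus that in growth medium, and were not tested. None of the 6 members shifted past 2-fold, and over all genes 3.26% and 4.94% shifted at least 2-fold towards higher and lower values in differentiation medium. Cryab, Hspb8, Hspb7 and Hspb3 leaned towards lower values there, by -0.65, -0.57, -0.63 and -0.33, and Hspb1 and Hspb6 towards higher ones, by 0.67 and 0.46. All 19 other heat shock genes leaned towards higher values in differentiation medium, with a median of 0.58, against -0.02 for all genes. The smallest of these leans was 0.008, and their signs were not rechecked with other scalings of the arrays. Cryab and Hspb8 thus lay on the other side of the equal-difference line from those 19 genes.

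**Figure D4:**
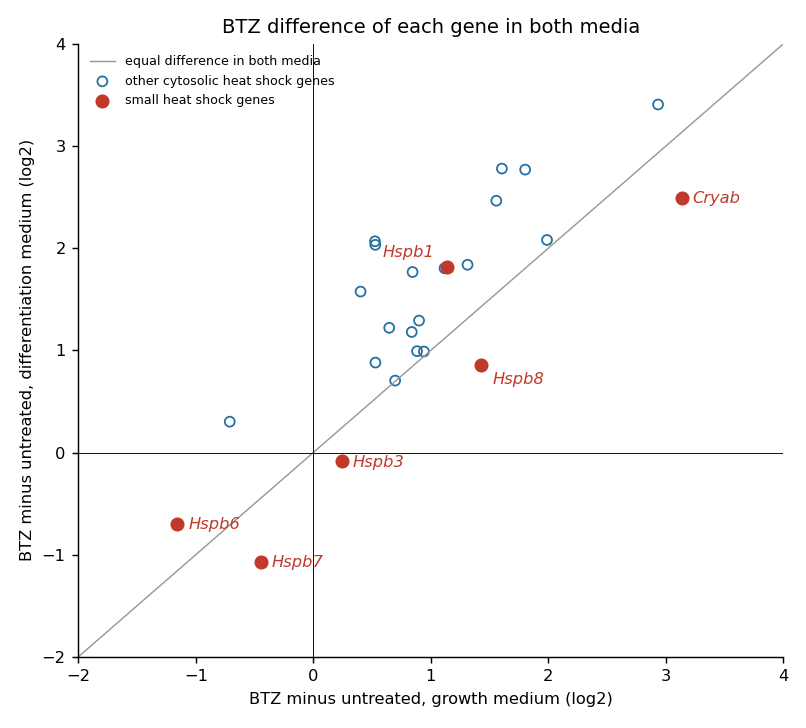
Log2 difference between the BTZ and untreated arrays in growth medium (x axis) and in differentiation medium (y axis). The 6 small heat shock genes are red and named. The 19 other heat shock genes are open blue and labelled cytosolic, although Hspd1 and Hspe1 among them act in mitochondria. The diagonal marks equal differences. All open points lie above the diagonal, the closest by only 0.008. Hspb1 and Hspb6 lie above it too, and Cryab (3.14 and 2.49) and Hspb8 (1.43 and 0.86) lie below it.

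TNF-α went with small differences, mostly downwards. The TNF-α and BTZ comparisons of a medium share their untreated array. In growth medium 0 of 6 members were past 2-fold, where 0.982% of all genes were past it upwards and 1.02% downwards. The largest differences there were -0.52 for Hspb6 and -0.41 for Cryab. Hspb1 at -0.01 and Hspb8 at 0.00 changed sign with the scaling of the arrays: Hspb1 was at 0.05 with arrays shifted to the same median, and Hspb8 at -0.07 after quantile normalization. In differentiation medium all 6 members were lower, again with 0 past 2-fold, against 2.01% of all genes past it upwards and 0.879% downwards. Hspb7 differed most, by -0.87, which is rank 183 from the bottom among 13652 genes. The other 5 lay between -0.47 and -0.33, while the median of all genes was 0.01.

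By the limma fit 0 of 6 members passed for TNF-α, against 0.0952% of all genes. At an unadjusted p under 0.05 it was 1 of 6, against 6.56% of all genes. That gene was Hspb6, with an effect of -0.50 ± 0.19 (SE; adjusted p = 0.74). The other effects ran from -0.51 ± 0.23 for Hspb7 to -0.17 ± 0.27 for Hspb1. The 10 muscle differentiation markers were also all lower with TNF-α, with medians of -0.44 in both media, and 3 of 5 genes of dividing cells were past 2-fold upwards with it in differentiation medium (median 1.06); their part in these values was not tested. Between media, 0 of 6 members shifted past 2-fold in their TNF-α difference, against 1.84% and 0.996% of all genes towards higher and lower values. Hspb7 leaned most, by -0.71, and Cryab, at 0.01, took the opposite sign at under 0.01 with shifted or quantile-normalized arrays.

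Hspb7 was higher and Hspb6 lower in differentiation medium by the fit over all arrays. Between the untreated arrays 2 of 6 members lay 2-fold or more higher after differentiation and 1 lower, against 4.83% and 3.92% of all genes. One of these 2 was Hspb3, which passed the floor only on the differentiation arrays and so had to be higher there; the counts for medium include it. Hspb7 was higher by 1.88 (3.67-fold) and Hspb3 by 1.02 (2.02-fold, from a level under the floor, where folds are compressed). Hspb6 was lower by 1.28 (2.43-fold). Cryab at 0.82 and Hspb8 at 0.89 were higher without reaching 2-fold, and Hspb1 differed by -0.01.

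The same comparison could be made between the treated arrays. With TNF-α, 1 member lay 2-fold or more higher after differentiation (Hspb7, 1.17) and 1 lower (Hspb6, -1.23), against 5.85% and 4.85% of all genes. With BTZ, 1 was higher (Hspb7, 1.25) and 0 were lower (Hspb6 at -0.82), against 1.54% and 2.13%. The distance of Hspb7 between media was thus past 2-fold under all 3 treatments. Over all 6 arrays the limma fit gave 3 of 6 members for medium, against 4.03% of all genes. Hspb7 rose by 1.43 ± 0.19 (SE; adjusted p = 0.021), Hspb3 by 0.84 ± 0.15 (adjusted p = 0.046), and Hspb6 fell by 1.11 ± 0.16 (adjusted p = 0.025). Hspb3 passed the floor only through the arrays where it is higher, so its call adds no support. Without either untreated array 0 members passed for medium, and 1 of all genes did; without either TNF-α array 0 members and 111 or 115 of all genes did. In these fits the effect of Hspb7 was 1.21 to 1.56 and that of Hspb6 -1.05 to -1.03. With either BTZ array left out, the other is matched exactly, so the medium effect rests on the untreated and TNF-α arrays. That effect was then 1.52 for Hspb7 and -1.26 for Hspb6. Of 5 genes of dividing cells, 5 were past 2-fold downwards between the untreated media (median -3.01), and their part in the members' values was not tested.

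Between the same untreated cultures, 7 of 13 filament and Z-disc genes lay 2-fold or more higher and 0 lower, against 4.83% and 3.92% of all genes. Titin (Ttn) was at 6.21, the repeat protein Xirp1 at 3.63 and the calsarcin Myoz2 at 3.41. Of the 7, Myoz2 and Actn2 passed the floor only on differentiation arrays. The floor itself thus favoured higher values there, and these genes add no support. The 19 other heat shock genes had a median of -0.20, with 0 at least 2-fold higher and 2 lower. Of a list of other small heat shock genes outside the muscle group, Cryaa, Hspb9, Hspb11 and Odf1 were measured. Hspb11 is in it by name only, as an intraflagellar transport protein. In each of the 9 comparisons 0 of these 4 were past 2-fold. Over all genes 0.879% to 8.91% were past it per direction and comparison, so 4 genes are too few to set apart from that share. Cryaa lay between 4.88 and 5.36, around the floor, where folds are compressed.

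Patterns were compared after each gene's 6 values were centred on their own mean, by the root mean square difference over 6 arrays, where a smaller value means a closer pattern. The members' own spread about their mean ran from 0.46 for Hspb3 to 1.47 for Cryab. Within the family the distance was smallest for Hspb1 and Hspb8, at 0.38, and largest for Cryab and Hspb6, at 1.96. The distance grows with a gene's own spread, which was largest for Cryab. Pair distances thus reflect the size of a pattern as well as its shape. Distances to the nearest genes are not compared between members. The nearest genes to Cryab were Zfp945 at 0.32, Prkab2 at 0.39 and the phosphatase subunit Ppp1r15a at 0.48. Hspb1 lay nearest to Map1a (0.089), Smg1 (0.094) and Ahsa2 (0.11), and Hspb8 to the ubiquitin ligase Ubr3 (0.075), Lpin3 (0.095) and Pdrg1 (0.11). Hspb6 lay nearest to the differentiation inhibitor Id1 (0.17), Hacd4 (0.19) and Rad51c (0.19). Hspb7 lay nearest to Pdzrn3 (0.19), Mylip (0.21) and the neuronal nitric oxide synthase Nos1 (0.21), and Hspb3 to Eepd1 (0.070), Dip2c (0.074) and Syne1 (0.093). With 6 arrays and 13652 genes, such nearness is a description of these arrays.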

How the data were processed

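Total RNA was amplified with a whole-transcript kit, labelled with biotin and hybridised to 1 Affymetrix array per culture, per the labels' protocols. The deposited values are taken to be log2 signals from their range; how the scans were summarized and normalized by the authors is not stated in any label or header used. Array medians ran from 5.01 to 5.11, and no further scaling was applied. Of 41345 probe sets, 23521 named 1 gene, 1814 several and 16010 none in the platform annotation; probe sets naming 1 gene were averaged per gene. RefSeq held the Entrez number of 23328 of them, and 0 symbols differed.

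Differences are log2 differences between 2 arrays, counted at 2-fold. The additive fit (R 4.3.3, limma 3.58.1) had terms for medium, TNF-α and BTZ, an empirical Bayes step with a mean-variance trend, and Benjamini-Hochberg adjustment at 0.05. Its 2 residual degrees of freedom mix spread with any unequal response in the 2 media. The fit was tested on simulated data with independent noise and additive effects only. That setting held no unequal response in the 2 media, so the test does not cover it. The number of arrays limits all precision. Alternatives were other scalings, probe set rules, floors, moderation without a trend, and leaving out each array.

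Named genes were all members, at most the 3 genes of each companion list with the largest difference in a comparison, and the 3 nearest patterns of each member. Cd68, Synpo2, Vim, Actn2, Myh3 and Mef2c were named after their values were seen. Members, lists and tests were chosen with earlier results of these data known.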

Additional observations from a re-analysis of the deposited data

Results flagged for a closer look

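A probe set outside the gene values, annotated to both Hspb2 and Cryab, carried signal that differed between the untreated cultures. Its log2 signal was 6.87 untreated, 6.48 with TNF-α and 6.59 with BTZ in growth medium, and 8.43, 8.63 and 7.35 in differentiation medium. It was higher by 1.56 in untreated differentiation medium than in untreated growth medium. With BTZ it differed by -0.27 in growth and -1.08 in differentiation medium, while both probe sets of Cryab alone were higher with BTZ in both media. Neither gene can be credited with its signal.

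The treatment differences of 2 members had opposite signs in the 2 media, and the difference between media was not tested. For Hspb3 with BTZ it was 0.25 in growth and -0.08 in differentiation medium, a shift of -0.33. For Hspb8 with TNF-α it was 0.00 and -0.46, a shift of -0.47, and the growth-medium sign depends on the scaling.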

How the results depend on the processing

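With 1 array per group, differences between 2 arrays carry no error, and values near or under the floor are compressed by background. The alternatives were shifted arrays, quantile normalization, the highest probe set, no floor and a floor of 6. Across them, all counts of members past 2-fold in the 9 comparisons stayed within 1.5 times of those reported. All counts of members passing the limma fit did too, also without a trend. That margin lets 3 against 2 count as kept. The floor settings change no difference between arrays. All 6 measured members passed the main floor, so removing it could not change the counts past 2-fold. A floor of 6 could only leave members out. With a floor of 6, which leaves out Hspb3, members past 2-fold between untreated media fell from 3 to 2. Members passing the fit for medium also fell from 3 to 2. With the highest probe set, members past 2-fold between TNF-α-treated media rose from 2 to 3. The other counts did not change. Leaving out each array in turn moved the members passing for medium between 0 and 5 and for BTZ between 0 and 5, and for TNF-α it stayed at 0. Those fits have fewer arrays and 1 residual degree of freedom. Of 162 single differences recomputed under the scaling and probe set alternatives, 157 kept their sign and their side of 2-fold. Another 4, all under 2-fold, changed sign, and Cryab between media with TNF-α reached 1.01 with its brighter probe set. Hspb3, Hspb6, Hspb7 and Hspb8 have 1 probe set each, so their values under the highest probe set could not change and carry no information. Under each of the 2 scalings, 52 of 54 differences were kept. No paired analysis was possible because each group holds a single array and the labels number all of them 1.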
